A study of Mus musculus with 3 samples.

Results

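The 9 genes described here encode enzymes that crosslink collagen: the lysyl oxidases Lox, Loxl1, Loxl2, Loxl3 and Loxl4, the lysyl hydroxylases Plod1, Plod2 and Plod3, and transglutaminase 2 (Tgm2). They were selected by gene name, and all 9 were among the 36530 features of the count tables. Single-cell RNA libraries had been made from 3 mouse melanomas, and the authors had assigned every cell to a named cluster. The mice were of C57BL/6 background and carried a Cre-activated oncogenic Braf allele (LSL), Tyr:CreER and a Cre-activated tdTomato reporter, in which the melanocyte promoter Tyr limits recombination by topical tamoxifen to melanocytes, so that stromal and immune cells are not targeted. One tumor was untreated, one had regressed under vemurafenib, a Braf inhibitor, and one had progressed under continued vemurafenib. The sample labels give no age.

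Lysyl oxidases are secreted, copper-dependent enzymes that turn lysine and hydroxylysine side chains of collagen and elastin into aldehydes, from which crosslinks between neighbouring molecules form. Lysyl hydroxylases act earlier, on collagen chains inside the endoplasmic reticulum, and Plod2 in particular hydroxylates the telopeptides at the chain ends, which leads to a more stable kind of crosslink. Tgm2 joins glutamine and lysine side chains of extracellular proteins and also has functions inside cells. Fibroblasts are the main producers of fibrillar collagen in skin and in tumors.

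The libraries held 3726 to 4849 cells, with a median of 2658 to 4566 UMIs (unique molecular identifiers, tags that let each captured RNA molecule be counted once) per cell, and the regressed library was the shallowest. Levels are UMIs of a gene per 1000000 UMIs of the cells summed (CPM), with an exact Poisson 95% interval. Each group was 1 tumor, so tumors were not tested against each other and cells did not stand in for replicates. Every interval covers counting error only. Non-immune stroma comprised the clusters Stroma1 to Stroma10, with 2628 untreated, 1918 regressed and 3422 progressed cells. The clusters were unevenly shared: 472 untreated cells and 1 regressed cell made up Stroma1, the untreated tumor gave 1144 Stroma2 cells against 26 progressed ones, the regressed tumor gave 310 of the Stroma9 and 1537 of the Stroma10 cells against no more than 7 from any other tumor, and Stroma5, Stroma6 and Stroma7 were mostly progressed. For Stroma1, Stroma9 and Stroma10, cluster and tumor therefore cannot be told apart. The defining fibroblast markers Fap, Pdgfra, Col1a1, Col1a2, Dcn and Lum summed to 27997 to 48912 CPM in the 10 clusters, against 1674 to 14460 CPM in the other clusters, so every stroma cluster carried fibroblast markers. Stroma6, the largest progressed cluster, was led by genes that include the pericyte genes Rgs5 and Kcnj8 and the pigment cell genes Mlana and Gpnmb, and its summed level of 6 pericyte and smooth muscle markers, 364 CPM, was the highest of any cluster, against 46.9 to 322 CPM in the other stroma clusters. The part of these cells in the Stroma6 values was not tested.

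The lysyl oxidases were concentrated in a few stroma clusters. Stroma8, a cluster of 62 cells led by Smpd3, Pcolce2, Cxcl13, Ly6c1 and Pi16, held the highest Loxl1 level among stroma clusters of at least 10 cells in every tumor. Loxl1 stood there at 1182 CPM (997 to 1391) in the untreated, 697 CPM (518 to 919) in the regressed and 1099 CPM (955 to 1258) in the progressed tumor. Stroma3 came next in all 3 tumors, at 761, 271 and 470 CPM, although the regressed value rested on 12 cells and 10 UMIs and its interval (130 to 498) overlapped those of Stroma9 and Stroma6. Stroma4 and Stroma7 stood lowest among the clusters of at least 10 cells in the untreated and progressed tumors, Stroma4 at 89.7 and 86.1 CPM and Stroma7 at 77.2 and 59.9 CPM, and the 20 regressed Stroma4 cells held 0 Loxl1 UMIs.

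Lox, the founding member of the family, had the same 2 clusters at its top. In Stroma8 it reached 878 CPM (720 to 1061) in untreated, 293 CPM (181 to 448) in regressed and 368 CPM (287 to 465) in progressed cells. In Stroma3 it stood at 158, 298 and 189 CPM, so the regressed Stroma3 and Stroma8 values did not differ beyond their intervals. Stroma8 made up 0.865% of the untreated stromal UMIs and held 10.2% of the untreated stromal Lox UMIs, the largest excess of any member in a cluster of that tumor with at least 20 UMIs of the gene. A Lox UMI was found in 20 of 23 untreated Stroma8 cells, 4 of 18 regressed and 10 of 21 progressed ones.

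Loxl2 and Loxl3 were spread more evenly over stroma. Loxl2, which is also known for functions in the nucleus, was highest in Stroma3 of the untreated (269.5 CPM, 232 to 312) and the regressed tumor (298 CPM, 149 to 533) and in Stroma8 of the progressed tumor (326 CPM, 250 to 418). Its levels in the other untreated and progressed clusters of at least 10 cells lay between 25.7 and 245 CPM, with Stroma4 and Stroma7 at the low end in both tumors. Loxl3 stood between 15.5 and 73.6 CPM in every untreated and progressed stroma cluster of at least 10 cells, and most neighbours in that order had overlapping intervals.

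Loxl4 was the rarest member, with 94 UMIs in all 12670 cells. Its highest level was in Stroma3 of the regressed (81.2 CPM, 3 UMIs) and progressed tumor (23.6 CPM, 13 UMIs) and in Stroma8 of the untreated tumor (24.6 CPM, 3 UMIs). Stroma4 held 0 Loxl4 UMIs in all 3 tumors, where a count of 3 UMIs would stand at 1.17 CPM in the untreated cells. Outside stroma, untreated blood vessel cells held 15.4 CPM (12 UMIs), against 0 UMIs in the fewer regressed and progressed ones.

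**Figure D1:**
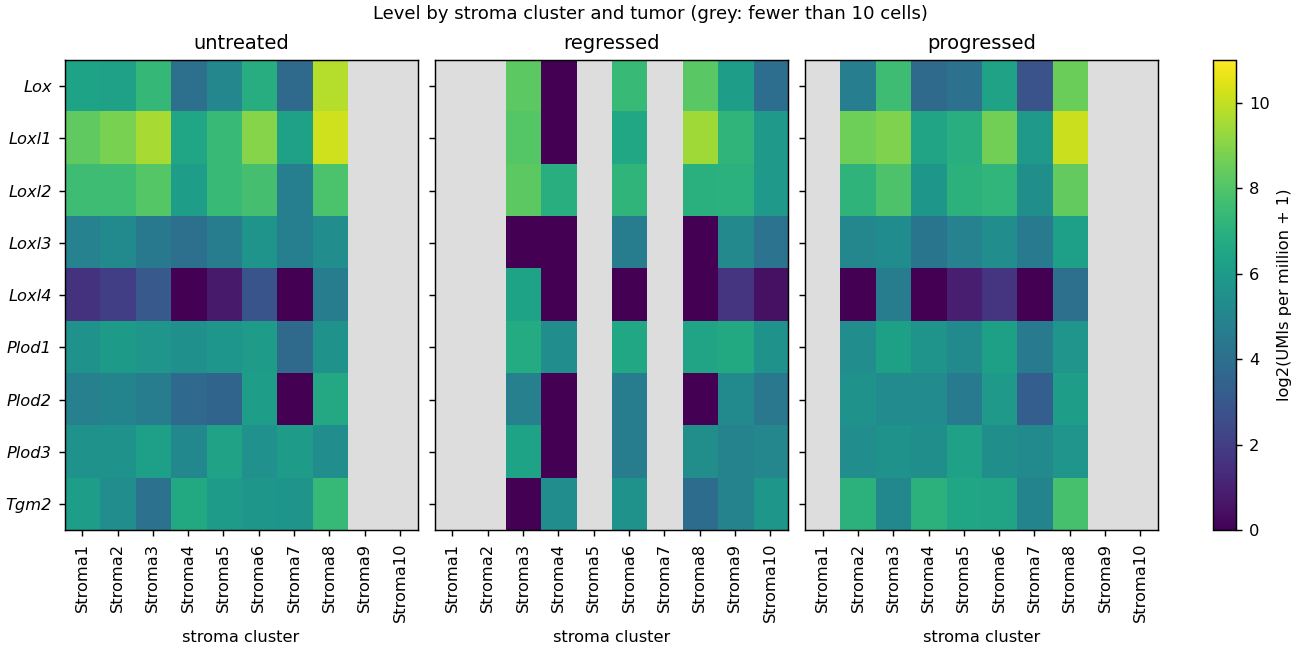
Level of each gene as log2(CPM + 1) in colour, by stroma cluster (horizontal axis) in the untreated, regressed and progressed tumor (panels); grey marks clusters with fewer than 10 cells. Loxl1 is brightest in Stroma8 in every tumor, reaching 1182, 697 and 1099 CPM, and Stroma4 and Stroma7 are dark for Lox.

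The lysyl hydroxylases and Tgm2 showed other orders. Plod1, whose product hydroxylates lysines in the triple-helical part of collagen, differed little among the 8 untreated clusters of at least 10 cells, from 12.9 CPM in Stroma7 (1 UMI) to 67.5 CPM in Stroma6. Plod3, which also adds sugars to hydroxylysine, was highest in untreated and progressed Stroma5 at 80.4 and 77.2 CPM. Plod2 was highest in Stroma8 of both, at 98.5 CPM (12 UMIs) and 68.4 CPM (13 UMIs), with overlapping intervals to Stroma6 at 69.6 and 59.2 CPM. Tgm2 was highest in Stroma8 (164 and 221 CPM), followed in the untreated tumor by Stroma4 at 101 CPM and in the progressed tumor by Stroma4 at 134 CPM and Stroma2 at 132 CPM.

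The 2 largest stroma clusters of each tumor by cell number were set against each other, which compares cells of 1 library. These were Stroma2 and Stroma4 in the untreated, Stroma9 and Stroma10 in the regressed and Stroma6 and Stroma4 in the progressed tumor, and the clusters had been formed by the authors from the same cells, so the values are a description. The pairs were chosen after their values were seen. In the untreated tumor Lox stood at 77.7 CPM in Stroma2 and 15.5 CPM in Stroma4, with a log2 ratio of 2.32 (1.85 to 2.83). In the regressed tumor it stood at 67.99 CPM in Stroma9 and 14.8 CPM in Stroma10 (log2 ratio 2.198, 1.74 to 2.66), and in the progressed tumor at 79.1 CPM in Stroma6 and 13.1 CPM in Stroma4 (log2 ratio 2.59, 2.16 to 3.06). In these pairs, 1 cluster of each tumor thus stood at a like, higher Lox level and 1 at a like, lower level. The lower cluster was Stroma4 in both the untreated and the progressed tumor, so these pairs are alike in part by cluster. By UMIs, untreated Stroma1, with 21.0% of the stromal UMIs, was larger than Stroma4, with 18.3%, and its Lox level was 81.7 CPM.

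Loxl1, Loxl2, Loxl3 and Plod2 had the same direction as Lox in all 3 pairs, with log2 ratios of 1.29 to 2.30, 1.10 to 1.44, 1.05 to 1.23 and 0.63 to 1.28, and every interval lay above 0. Each pair is given with its higher-Lox cluster first. The share of all features with 1 direction in all 3 pairs was not computed, so how common such a shared direction was is not known. Plod1 was higher in the same cluster of each pair by 0.47 (0.17 to 0.79), 1.07 (0.75 to 1.38) and 0.57 (0.32 to 0.82) on the log2 scale. Tgm2 had the opposite direction in all 3. It stood at 40.5 CPM in Stroma2 against 101 CPM in Stroma4 of the untreated tumor, at 28.9 CPM in Stroma9 against 56.0 CPM in Stroma10 of the regressed tumor, and at 85.0 CPM in Stroma6 against 134 CPM in Stroma4 of the progressed tumor. The log2 ratios were -1.32 (-1.58 to -1.07), -0.95 (-1.47 to -0.47) and -0.65 (-0.84 to -0.47), while the median over all features with at least 20 UMIs was -0.09, -0.15 and -0.18. Loxl4 had 0 UMIs in Stroma4, so its log2 ratio was at least 1.39 in the untreated and 1.37 in the progressed tumor. In the regressed tumor its interval included 0. For Plod3 the 3 log2 ratios were 0.45, -0.18 and 0.02, and 2 of the intervals included 0. For Lox against Tgm2, clusters outside the pairs went both ways. Untreated Stroma3 had Lox at 158 and Tgm2 at 16.3 CPM, and untreated Stroma8 was high in both, at 878 and 164 CPM. Untreated Stroma1, with Lox at 81.7 CPM, held 23.6% of the Tgm2 UMIs from 21.0% of the stromal UMIs. Progressed Stroma5 had Lox at 16.1 and Tgm2 at 88.4 CPM.

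**Figure D2:**
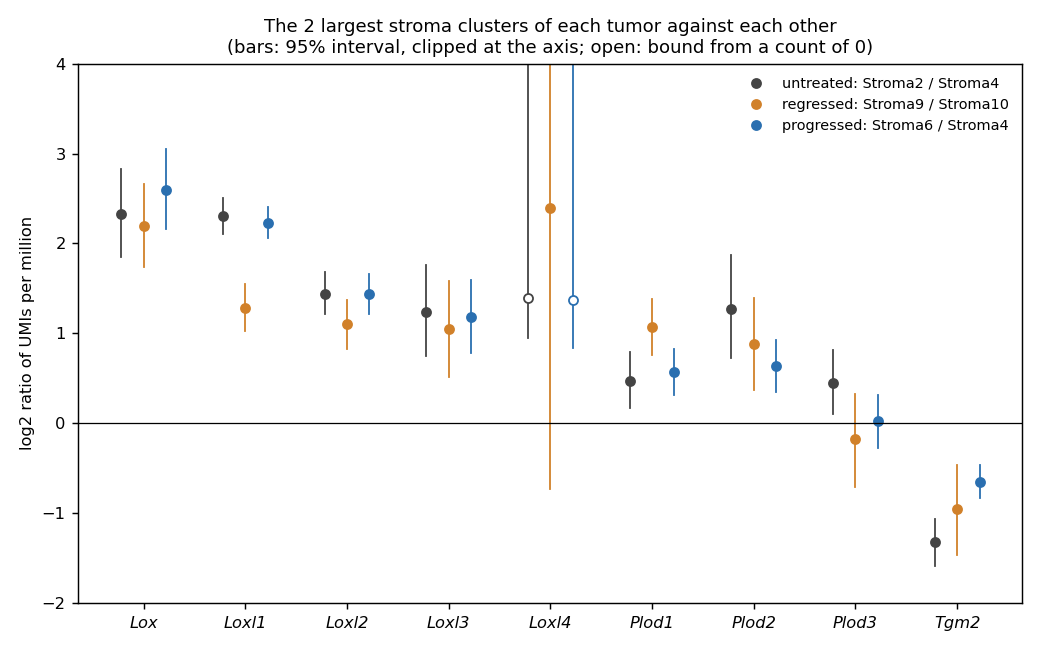
Log2 ratio of CPM (vertical axis) of each gene between the 2 largest stroma clusters of the untreated (Stroma2 over Stroma4), regressed (Stroma9 over Stroma10) and progressed tumor (Stroma6 over Stroma4); points are ratios, bars are 95% intervals clipped at the axis, and open points are bounds from a count of 0. Lox lies at 2.198 to 2.59 in all 3 tumors and Tgm2 at -1.32 to -0.65.

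The next comparison was between tumors over the whole stroma. A gene was called where its CPM differed at least 2-fold, among features with at least 20 UMIs over both sums, and all 9 genes passed that minimum. Loxl1 stood at 347 CPM (338 to 357) in the untreated, 87.8 CPM (80.7 to 95.3) in the regressed and 221 CPM (214 to 228) in the progressed stroma. The regressed level was 3.96-fold below the untreated one, a log2 ratio of -1.98 (-2.11 to -1.86), and the progressed level lay between the other two.

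Lox stood at 74.7 CPM (70.3 to 79.4) in untreated, 31.9 CPM (27.7 to 36.6) in regressed and 44.1 CPM (41.1 to 47.3) in progressed stroma. Loxl2 stood at 171, 79.1 and 119 CPM. Both were thus highest in the untreated and lowest in the regressed tumor, with log2 ratios of regressed over untreated of -1.23 (-1.45 to -1.01) for Lox and -1.11 (-1.25 to -0.97) for Loxl2. Loxl4, at 2.56, 1.25 and 1.88 CPM, rested on 36, 8 and 33 UMIs, and its log2 ratio of -1.04 had an interval that included 0 (-2.35 to 0.09). Loxl3 stood at 29.5, 20.7 and 30.5 CPM, lowest in the regressed tumor and at overlapping levels in the other two.

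Of the 9 genes, 4 were called lower in regressed than in untreated stroma, all of them lysyl oxidases (Lox, Loxl1, Loxl2 and Loxl4), against 7.09% of the 14791 features compared. None was called higher, against 13.7% of features. Progressed over regressed, 1 was called higher (Loxl1, log2 ratio 1.33, 1.21 to 1.46), against 4.99% of features, and 0 lower, against 15.9%. Progressed over untreated, 0 were called in either direction, against 3.57% of features higher and 5.70% lower, although the intervals of Lox (-0.90 to -0.63), Loxl1 (-0.71 to -0.59) and Loxl2 (-0.60 to -0.43) lay below 0. Of the 4 genes called lower in the regressed stroma, Loxl1 was at least 2-fold lower under all 6 alternatives that were run. Loxl4 was at -0.43 with equal weight per cell and, from 1 untreated and 2 regressed cells with a UMI, at 1.58 after thinning to 1000 UMIs per cell, where Loxl2 was at -0.997 and Loxl3 at -1.12. With the 4 clusters shared by all tumors weighted equally, Lox was at -0.62, Loxl2 at -0.20 and Loxl4 at 1.08, while Loxl3, Plod2 and Tgm2 were at least 2-fold lower. Those values rest on few UMIs, since no regressed cluster held more than 1 Loxl3, 1 Plod2 or 2 Tgm2 UMIs. The regressed Loxl4 UMIs were 3, in Stroma3, and a count of 0 was averaged as 0. The share of all features called was computed for none of these alternatives. After thinning, Loxl4 was also at 1.20 for progressed over untreated stroma. The 3 comparisons share tumors and are not independent. The median log2 ratio of the 9 genes was -0.58, 0.60 and -0.08 in the same order, against 0.14, -0.20 and -0.06 over all features. Many of those features held fewer UMIs than the 9 genes.

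The regressed values depended on Stroma10 to an extent that differed between the genes. That cluster held 75.6% of the regressed stromal UMIs, 35.1% of the Lox UMIs, 52.1% of the Loxl1 UMIs and 85.8% of the Tgm2 UMIs. Without Stroma10 the log2 ratio of regressed over untreated was 0.18 for Lox, -1.01 for Loxl1, -0.34 for Loxl2, 0.11 for Loxl3, 0.58 for Loxl4, 0.39 for Plod2 and -1.07 for Tgm2, so these 4 (Lox, Loxl3, Loxl4 and Plod2) turned from lower to higher and 2 genes were at least 2-fold lower, Loxl1 and Tgm2. Stroma10 held 4 untreated and 7 progressed cells, so leaving it out took a low-Lox cluster (14.8 CPM) from the regressed stroma almost alone. The untreated stroma kept Stroma4, with Lox at 15.5 CPM and 18.3% of its UMIs. A higher regressed Lox level without Stroma10 was thus fixed by the choice of cluster. The share of all features called without Stroma10 was not computed. For progressed over regressed stroma, the Loxl1 ratio without Stroma10 was 0.36, no longer 2-fold, and that of Tgm2 was 1.66. For this comparison 381 regressed stromal cells remained, 310 of them in Stroma9. The genes that led Stroma10 against the other stroma clusters were haemoglobin genes, Y-linked genes, microRNA genes and the mast cell gene Tpsb2. Haemoglobin genes, the Y-linked gene Ddx3y and microRNA genes were also among those that led Stroma9. Haemoglobin markers summed to 1603 CPM in Stroma10 and 1500 CPM in Stroma9, and mast cell markers to 388 and 389 CPM. Whether the mice differed in sex was not tested, and with 1 tumor per group sex cannot be told apart from treatment. The haemoglobin markers Hba-a1, Hba-a2, Hbb-bs and Hbb-bt summed to 1582 CPM in regressed stroma, against 37.5 CPM in untreated and 0.625 CPM in progressed stroma.

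Markers of other cell types moved with the same comparison. Over untreated, regressed and progressed stroma, the summed level of 4 mast cell markers was 10.5, 388.5 and 40.6 CPM, that of 4 T and NK cell markers 2.202, 59.6 and 1.93 CPM, that of 5 macrophage markers 34.4, 133 and 41.9 CPM, and that of 4 keratinocyte markers 166, 740.3 and 244 CPM. Neutrophil markers fell outside this order, at 650.0, 433 and 4.66 CPM, and pericyte and smooth muscle markers stood at 177, 135 and 143 CPM, with Kcnj8, Notch3 and Acta2 called lower in the regressed tumor. The 6 fibroblast markers held 35314, 32864 and 38167 CPM and none was called between tumors. Endothelial markers stood at 128, 89.97 and 61.9 CPM, although Pecam1 and Cldn5 were called higher and Emcn lower for regressed over untreated stroma, where the median log2 ratio of the 4 genes compared was 0.43. The remaining lists were Schwann cell markers, at 12.2, 37.5 and 29.5 CPM, Ptprc, at 3.69, 18.2 and 2.10 CPM, and adipocyte and skeletal muscle markers, at no more than 4.05 CPM. In progressed stroma 1 of the T and NK cell and 1 of the haemoglobin markers had 0 UMIs, as did 1 of 2 skeletal muscle markers in every tumor and 1 of 2 adipocyte markers in the regressed tumor. Their part in the lysyl oxidase values was not tested.

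**Figure D3:**
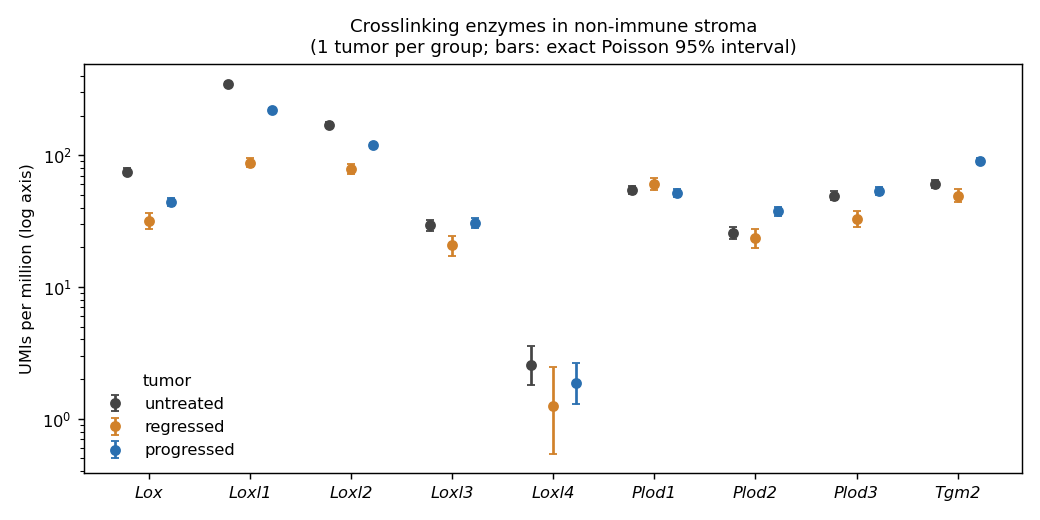
CPM of each gene in the whole non-immune stroma (vertical log axis) by tumor (colours), with exact Poisson 95% intervals that cover counting error only. The regressed values of Lox, Loxl1 and Loxl2 (31.9, 87.8 and 79.1 CPM) lie below both other tumors, and Tgm2 is highest in the progressed tumor.

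Between the regressed and the untreated tumor, 4 stroma clusters had at least 10 cells in both (Stroma3, Stroma4, Stroma6 and Stroma8, with 12, 20, 13 and 18 regressed cells). Loxl1 was lower in the regressed cells of 3, with an interval below 0 in Stroma3 (log2 ratio -1.49, -2.56 to -0.60), Stroma6 (-2.40, -4.29 to -1.03) and Stroma8 (-0.76, -1.26 to -0.29), while the 0 UMIs of the regressed Stroma4 cells only bound the ratio at 0.43 and give no direction. Lox had no such common direction. Its regressed level was higher in Stroma3 (298 against 158 CPM) and Stroma6 (169 against 116 CPM), with intervals that included 0, and lower in Stroma8 (293 against 878 CPM, log2 ratio -1.58, -2.33 to -0.90).

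A depth-matched measure gave the same order for Loxl1. After every cell had been thinned to 1000 UMIs, which left out 29 untreated, 185 regressed and 22 progressed stromal cells, a Loxl1 UMI remained in 24.2% of untreated, 7.39% of regressed and 16.9% of progressed stromal cells (58.1%, 20.3% and 45.1% before thinning). The shares in immune cells, which are not known to make Loxl1, were 2.44%, 1.27% and 1.35% (7.502%, 5.22% and 5.27% before thinning). Median depth was 4654, 3152 and 4388 UMIs in stromal and 3651, 2173 and 3736 UMIs in immune cells.

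The lysyl hydroxylases differed less between tumors. Plod1 stood at 54.8 CPM (51.0 to 58.8) in untreated, 60.4 CPM (54.5 to 66.7) in regressed and 51.9 CPM (48.6 to 55.4) in progressed stroma. The log2 ratio of regressed over untreated was 0.14 (-0.04 to 0.32), which included 0, and it was 0.85 without Stroma10 and -0.10 with TMM scaling, which turned its direction. Plod3 stood at 49.3, 33.0 and 53.7 CPM, lowest in the regressed tumor (log2 ratio -0.58, -0.81 to -0.36). Plod2, the telopeptide enzyme, stood at 25.8, 23.3 and 37.5 CPM, highest in the progressed tumor, with log2 ratios of 0.54 (0.35 to 0.73) over untreated and 0.68 (0.43 to 0.95) over regressed stroma. Without Stroma10 the log2 ratio of Plod2 over regressed stroma was 0.15. None of the 3 was called in any comparison.

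Tgm2 had its highest stromal level in the progressed tumor, with log2 ratios of 0.59 (0.47 to 0.71) over untreated and 0.88 (0.70 to 1.06) over regressed stroma. The levels were 60.2 CPM (56.3 to 64.4) in untreated, 49.3 CPM (44.1 to 55.1) in regressed and 90.7 CPM (86.3 to 95.3) in progressed stroma. Of the UMIs of all 9 genes, Tgm2 took 7.39% in untreated, 12.8% in regressed and 13.9% in progressed stroma, and Loxl1 took 42.6%, 22.7% and 33.99%. The Tgm2 share was thus higher in regressed than in untreated stroma while its level was lower.

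Since the clusters carried different shares of each tumor, progressed and untreated cells were also compared within the 7 clusters that had at least 10 cells in both (Stroma2 to Stroma8). Loxl1 was lower in the progressed cells of 7 of 7 clusters, with intervals below 0 in Stroma3 (761 to 470 CPM, log2 ratio -0.70, -0.92 to -0.48), Stroma5 (170 to 117 CPM, -0.54, -0.76 to -0.31) and Stroma6 (511 to 405 CPM, -0.34, -0.53 to -0.14). Lox was lower in 6 of 7, with the largest well-counted difference in Stroma8 (878 to 368 CPM, log2 ratio -1.25, -1.71 to -0.81), and stood at 158 and 189 CPM in Stroma3, the exception, where the interval included 0 (-0.15 to 0.65). These 2 genes of 9 were lower in at least 6 of 7 clusters, as were 10.2% of the 15068 features with at least 20 UMIs. For such shares a 0 against a count was taken as a direction, and many features held fewer UMIs than the 9 genes.

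Tgm2 was the only member higher in the progressed cells of at least 6 of 7 clusters, as were 10.3% of features. Its level went from 40.5 to 132 CPM in Stroma2 (log2 ratio 1.71, 0.88 to 2.44), from 101 to 134 CPM in Stroma4 (0.40, 0.18 to 0.62), from 66.0 to 88.4 CPM in Stroma5 (0.42, 0.09 to 0.77) and from 54.9 to 85.0 CPM in Stroma6 (0.63, 0.06 to 1.26). In Stroma7 the untreated level of 51.4 CPM came from 4 UMIs, and the interval of the ratio ran from -2.21 to 1.16. After thinning to 1000 UMIs per cell the Tgm2 ratio turned to -0.17 in Stroma2 and -0.26 in Stroma6, where a Tgm2 UMI remained in 1 of 26 progressed Stroma2 cells and 7 of 81 untreated Stroma6 cells. Plod2 was higher in 4 of 7 clusters and lower in 2, and the largest difference was in Stroma4, where it went from 12.4 to 38.2 CPM (log2 ratio 1.62, 1.06 to 2.22), and in Stroma5, from 10.6 to 22.9 CPM (1.11, 0.31 to 2.02). It stood at 69.6 and 59.2 CPM in Stroma6, with an interval that included 0, and in Stroma7 the 18 untreated cells held 0 Plod2 UMIs, which gives no direction.

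In the 4 clusters with at least 50 cells in both tumors, a minimum chosen after the values were seen, Loxl1 and Loxl2 were lower in 4 of 4, as were 12.1% of features, and Tgm2 was higher in 4 of 4, as were 11.2%. In at least 3 of 4, Lox and Plod3 were lower too, as were 35.2% of features, and Loxl3, Plod1 and Plod2 were higher too, as were 33.2%. With the 7 clusters weighted equally, also chosen after the values were seen, the log2 ratio of progressed over untreated was -0.89 for Lox, -0.31 for Loxl1, -0.10 for Loxl2, 0.22 for Plod2 and 0.55 for Tgm2, against -0.76, -0.65, -0.52, 0.54 and 0.59 over the whole stroma. For Loxl1, Loxl2 and Plod2 the equally weighted ratio was nearer to 0 and outside the counting interval of the whole-stroma ratio, and for Lox and Tgm2 it was inside. The Lox value rested on Stroma8, with 23 untreated and 21 progressed cells: without that cluster the equally weighted ratio was -0.34 for Lox, -0.43 for Loxl1, -0.29 for Loxl2, 0.57 for Plod2 and 0.61 for Tgm2. The clusters that held the RNA also differed: 53.2% of the untreated stromal Loxl1 UMIs were in Stroma2, and 59.2% of the progressed ones in Stroma6.

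**Figure D4:**
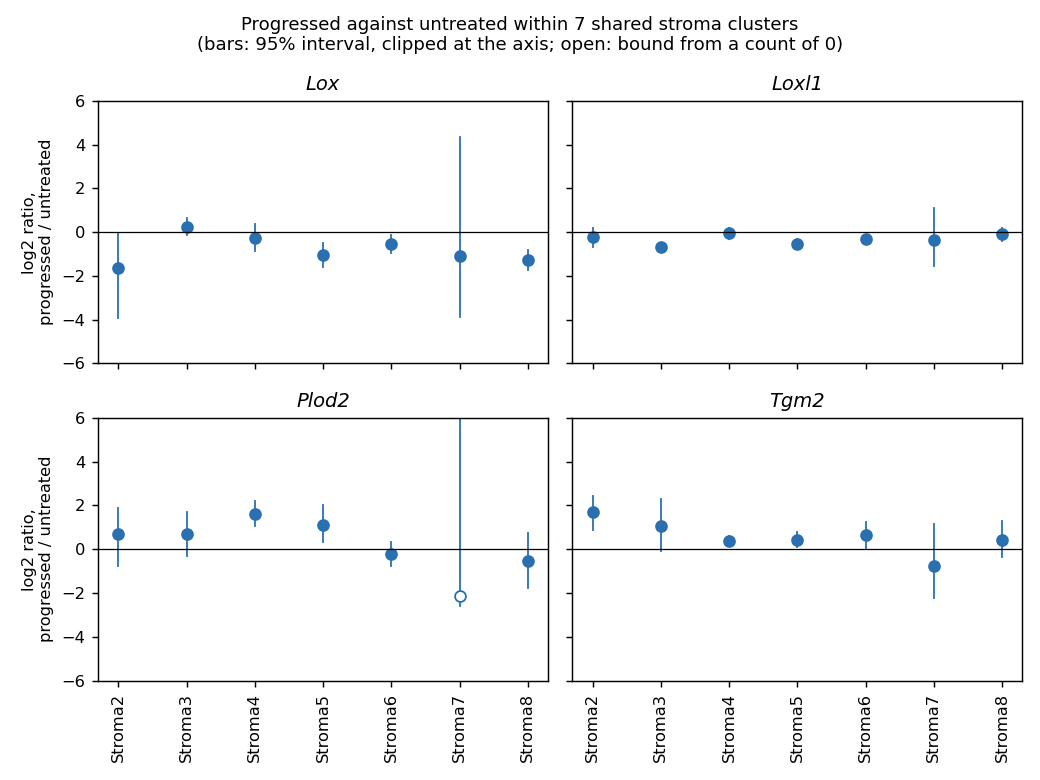
Log2 ratio of CPM, progressed over untreated (vertical axis), within each of the 7 stroma clusters with at least 10 cells in both tumors; bars are 95% intervals clipped at the axis, and the open point is a bound from a count of 0. All 7 Loxl1 points lie below 0, and 6 of the 7 Tgm2 points lie above it.

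Outside stroma the 9 genes were set against immune, tumor and blood vessel cells within each tumor. Against immune cells, 5 of 9 were at least 2-fold higher in stroma in all 3 tumors (Lox, Loxl1, Loxl2, Loxl3 and Plod2), as were 14.7% of the 17039 features compared, and 0 were lower, against 11.6%. Against tumor cells, Lox and Loxl1 were higher, as were 4.11% of 16049 features, and Plod1 was lower, as were 6.06%. Against blood vessel cells, Lox, Loxl1 and Loxl3 were higher, as were 3.64% of 16062 features, and Tgm2 was lower, as were 6.56%. These values rest on 74 untreated, 48 regressed and 28 progressed blood vessel cells, of which the regressed and progressed ones held 0 Lox UMIs and no more than 2 Loxl3 UMIs.

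Plod1 was highest in the tumor cells. It stood at 129 CPM (34 UMIs) in untreated, 188 CPM (112 UMIs) in regressed and 121 CPM (102 UMIs) in progressed tumor cells, and the log2 ratio of stroma over tumor cells was -1.64 to -1.23, with each interval below 0. Within the cluster Tumor1, which had 44, 61 and 156 cells, the 3 tumors stood at 131, 126 and 123 CPM and did not differ beyond their intervals. Plod3 was also higher in tumor cells than in stroma in all 3 tumors, at 114, 85.6 and 76.2 CPM, although the difference reached 2-fold in 2 of them only.

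Plod2 stood apart in the regressed tumor cells. Its level there was 116 CPM (69 UMIs), against 18.9 CPM (5 UMIs) in untreated and 27.4 CPM (23 UMIs) in progressed tumor cells. Of the 69 UMIs, 65 were in Tumor2, a cluster of 349 regressed cells with 4 cells in each other tumor, where the level was 146 CPM (113 to 186), against 26.5 CPM (7.2 to 67.8) in the regressed Tumor1 cells (log2 ratio 2.46, 1.04 to 4.38). The Tumor1 values of 22.7, 26.5 and 27.8 CPM did not differ beyond their intervals, and cluster and tumor cannot be told apart for Tumor2. Loxl3 had a like direction between these clusters, at 53.9 against 13.2 CPM, with 24 and 2 UMIs.

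Tgm2 was highest in blood vessel cells and in some myeloid clusters. Blood vessel cells held 191 CPM (162 to 225) in the untreated, 233 CPM (173 to 307) in the regressed and 490.3 CPM (387 to 613) in the progressed tumor, and the progressed level was above the untreated one by 1.36 on the log2 scale (0.94 to 1.76). Monocytes1, a cluster led by Chil3 and Lyz2, showed the same order at 109 CPM (91.0 to 131), 123 CPM (99.9 to 149) and 398 CPM (323 to 484), a log2 ratio of progressed over untreated of 1.86 (1.47 to 2.26). Neutrophils stood at 175 CPM in the untreated and 225 CPM in the regressed tumor, and only 4 progressed neutrophils were present. The pooled immune level was nonetheless lower in the progressed (71.4 CPM) than in the untreated tumor (105 CPM). Neutrophils held 56.1% of the untreated immune Tgm2 UMIs, and Monocytes1 held 46.0% of the progressed ones from 8.27% of the immune UMIs.

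Among immune cells, Loxl2 stood out in mast cells, where it was at 132 CPM (8 UMIs) in untreated, 63.8 CPM (21 UMIs) in regressed and 114 CPM (34 UMIs) in progressed cells. No other immune cluster of at least 10 cells exceeded 24.8 CPM in any tumor. Mast cells held 55.7% of the progressed immune Loxl2 UMIs, from 9.88% of the immune UMIs. Loxl1 in the immune cells was highest in the untreated tumor, at 32.4, 18.7 and 13.3 CPM. In droplet data free RNA from other cells can give such counts, and its part was not tested.

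**Figure D5:**
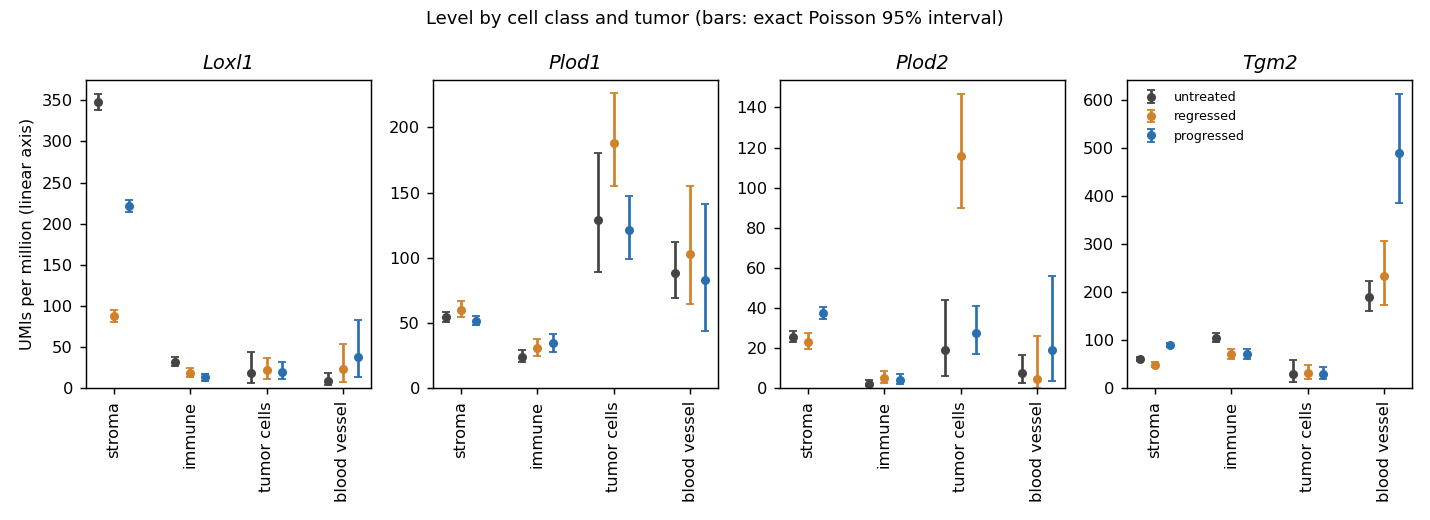
CPM on linear axes of Loxl1, Plod1, Plod2 and Tgm2 (panels) by cell class (horizontal axis) and tumor (colours), with exact Poisson 95% intervals. Loxl1 is highest in stroma, Plod1 in tumor cells, Plod2 in the regressed tumor cells at 116 CPM and Tgm2 in blood vessel cells, at 490.3 CPM in the progressed tumor.

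The pattern of each gene over the 53 cluster-by-tumor groups of at least 20 cells was compared with the patterns of 12615 genes by Pearson's r of log2(CPM + 1), as a description, since groups of 1 tumor share a library. The closest pattern to that of Lox was that of Loxl1 (r = 0.79), followed by Htra3 (0.78). For Loxl1 the closest were Mrc2 (0.85) and Gfpt2 (0.84), for Loxl2 Fbn1 (0.81) and Lhfp (0.79), for Loxl3 Fkbp14 (0.83) and Tnfaip6 (0.83), and for Loxl4 Akr1c14 (0.77) and Eln (0.76). For Plod1 they were Creld1 (0.86) and Fez2 (0.84), for Plod2 Magee1 (0.80) and Srpx2 (0.78), for Plod3 Tmem250-ps (0.88) and Uxs1 (0.87), and for Tgm2 Ifitm3 (0.74) and Mir22hg (0.69). Among the 9 genes themselves r ranged from 0.18, between Lox and Tgm2, to 0.79, between Lox and Loxl1.

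The genes that act beside the crosslinking enzymes were read from 5 lists. Their counts stand beside the same shares of all features, 7.09% lower and 13.7% higher for regressed over untreated, 4.99% higher and 15.9% lower for progressed over regressed, and 3.57% higher and 5.70% lower for progressed over untreated stroma. Of 6 substrates, 1 was called lower in regressed than in untreated stroma (Eln, the elastin gene), and none was called in another comparison. Col1a1, a chain of type I collagen, stood at 6804, 3996 and 7198 CPM over untreated, regressed and progressed stroma, a log2 ratio of -0.77 (-0.79 to -0.75) for regressed over untreated. Of 5 lysyl oxidase partners, 3 were called lower in the regressed stroma (Fn1, Postn and Fbln5) and 1 was called higher in progressed over regressed stroma (Fn1). Fn1, fibronectin, stood at 863, 353 and 803 CPM, and Postn, the matricellular protein periostin, at 423, 211 and 343 CPM.

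Of 15 further enzymes and chaperones that modify collagen in the endoplasmic reticulum, 2 were called higher (P3h2, Colgalt2) and 1 lower (P4ha3) in regressed over untreated stroma, the same 3 were called the other way in progressed over regressed stroma, and 1 was called higher in progressed over untreated stroma (P3h2, 18 against 7 UMIs, with an interval that included 0). Colgalt2, which adds galactose to hydroxylysine, stood at 4.404, 19.5 and 7.28 CPM, and P4ha3, a prolyl hydroxylase subunit, had 52, 1 and 79 UMIs. Fkbp10, a partner of Plod2 in telopeptide hydroxylation, stood at 130, 80.9 and 126 CPM, and Serpinh1, the collagen chaperone, at 1183, 1053 and 1573 CPM. Of 7 procollagen proteases and enhancers, 2 were called lower (Bmp1, Adamts3) and 1 higher (Pcolce2) in regressed over untreated stroma, 1 was called higher in progressed over regressed (Adamts14) and 1 lower in progressed over untreated stroma (Tll1). Bmp1, which cleaves procollagen and the Lox propeptide, stood at 153, 76.1 and 93.2 CPM, in the same order as Lox. Of 4 other transglutaminases, 2 had at least 20 UMIs in a comparison and 0 were called. Over the 5 lists the median log2 ratios of regressed over untreated were -0.86 for substrates, -1.004 for partners, -0.08 for the enzymes of the endoplasmic reticulum, -0.43 for the proteases and 0.18 for the transglutaminases.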

How the data were processed

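One library per tumor was analysed, from 1 untreated, 1 regressed and 1 progressed tumor. The authors prepared libraries with a droplet kit that reads 3' ends, aligned reads to GRCm38 with GSNAP and clustered cells with Seurat 2.2.0. The deposited tables hold UMI counts per Entrez ID and cell; 31049 of 36530 IDs were matched to a symbol. The deposited cell table holds labels (unit: other), total UMI counts and genes detected. Column sums exceeded the deposited totals by 5.02%, for a reason not found, and were used as denominators. Cell IDs are running numbers without barcodes, so shared barcodes could not be counted, and no ID was shared. No doublets were called and no cells removed here.

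UMIs were summed per cluster and tumor, and ratios were given with the conditional binomial 95% interval. A count of 0 was set to 3 UMIs over the group, which makes a ratio a bound. Named beside the 9 genes were, per gene, the 2 with the highest r among genes with at least 200 UMIs (the 9 kept regardless), pathway genes called in at least 2 comparisons, and Col1a1, Bmp1, Fkbp10, Serpinh1, Fn1 and Postn. The other genes named were chosen after their values were seen. The 9 genes and lists were chosen with earlier results of these data known. The ratios were tested on simulated data. Alternatives were TMM scaling (edgeR 4.0.16), cells weighted equally, thinning to 1000 UMIs, other sets of clusters and the deposited totals. Tools were Python 3.11.15, numpy 2.4.6 and scipy 1.17.1. One further element of the mouse genotype is not reported here.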

Additional observations from a re-analysis of the deposited data

Results flagged for a closer look

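Among stroma, immune and tumor cells, 4 of the 9 genes had ratios of opposite sign in 2 classes between the same 2 tumors. Each interval lay on its own side of 0. The share of all features with such ratios was not computed. These differences between classes were not tested, since each group held 1 tumor. Progressed over regressed, the log2 ratio of Lox was 0.47 (0.24 to 0.70) in stroma, while immune cells gave -1.50 (-2.99 to -0.19) from 7 and 19 UMIs. Progressed over untreated, the log2 ratio of Loxl2 was -0.52 (-0.60 to -0.43) in stroma, while immune cells gave 0.65 (0.11 to 1.20) from 61 and 58 UMIs. That of Tgm2 in the same comparison was 0.59 (0.47 to 0.71) in stroma against -0.56 (-0.80 to -0.32) in all immune cells, although Tgm2 was higher in the progressed cells of Monocytes1. Progressed over regressed, the log2 ratio of Plod2 was 0.68 (0.43 to 0.95) in stroma and -2.08 (-2.83 to -1.38) in tumor cells, of which 349 of the 410 regressed ones were in Tumor2. Blood vessel cells added such pairs for progressed over untreated. There Loxl1 was at 2.09 (0.24 to 3.88) from 6 and 7 UMIs, against -0.65 (-0.71 to -0.59) in stroma. Loxl2 was at 2.22 (1.14 to 3.30) from 16 and 17 UMIs, and Tgm2, unlike in the pooled immune cells, at 1.36 (0.94 to 1.76).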

How the results depend on the processing

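The 9-gene sum in stroma kept its direction under all alternatives. Its log2 ratio was -1.08 for regressed over untreated, 0.75 for progressed over regressed and -0.32 for progressed over untreated stroma. TMM scaling, which shifted all genes by -0.25, 0.31 and 0.06, gave -1.32, 1.06 and -0.26. Without Stroma10, which left out almost only regressed cells, the first 2 were -0.39 and 0.071. The 4 clusters shared by all tumors, weighted equally, gave -0.79, 0.57 and -0.22, and the 7 shared by untreated and progressed cells, chosen after seeing the data, gave -0.21, or -0.19 without Stroma8. Equal weight per cell, thinning and deposited totals stayed within the counting interval. Each single-gene ratio was counted once per alternative, so these counts of pairs exceed the number of separate ratios. Of 124 such pairs in stroma whose interval excluded 0, 8 changed direction, as did 4 of 53 within clusters. The cause was not tested. Without Stroma10, regressed over untreated was 0.18 for Lox and 0.11 for Loxl3, and progressed over regressed was -0.94 for Lox, -0.17 for Loxl2 and -0.063 for Loxl3. With the 4 shared clusters, progressed over regressed Lox was -0.23 and progressed over untreated Plod2 -0.0032. TMM gave 0.087 for Plod1, progressed over regressed. Within clusters, progressed over untreated, thinning gave -0.17 for Tgm2 in Stroma2, -0.26 for Tgm2 and 0.51 for Lox in Stroma6, and equal weight per cell gave 0.011 for Lox in Stroma6. Under TMM scaling 3 of 9 genes, in place of 1, were at least 2-fold higher in progressed than in regressed stroma. The share of all features under that scaling, which shifted every feature upward here, was not computed. No paired analysis was possible because each group held 1 tumor. Of the pairs whose interval included 0, 23 of 56 in stroma and 18 of 114 within clusters changed sign. Among them were Loxl4 for regressed over untreated stroma, which rests on 8 regressed UMIs (0.58 without Stroma10, 1.08 with the 4 shared clusters, 1.58 after thinning), Plod2 (0.39 without Stroma10) and Plod1 (-0.10 with TMM). The 12 to 20 regressed cells per shared cluster limit the values that use them.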
